A study of Danio rerio with 6 samples.

Results

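The genes described here serve the endoplasmic reticulum (ER): its stress sensors and their transcription factors, its chaperones and folding enzymes, its degradation machinery, and the channel through which new proteins enter it. A list of 42 gene symbols, chosen by function, was matched by symbol to the rows of the deposited expression table, and 41 of them were found among 15292 genes. eif2ak3, which encodes the stress kinase PERK, was not analysed here. Of the 41 genes, 40 reached the mean of at least 1 TPM set for testing, and ppp1r15b did not. The unit, TPM, is transcript abundance per unit of gene length, with every library brought to an equal total.

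Whole kidney marrow was taken from 3 adult zebrafish mutant for grna (grna-/-) and from 3 of their grna+/+ siblings, and messenger RNA was sequenced with 1 fish per library. grna encodes a granulin, a secreted and lysosomal protein, and the nature of the mutation, the sex and the exact age of the fish are not stated in the labels. Kidney marrow is the blood-forming tissue of adult fish, and the labels describe a strained suspension with no sorting by cell type. Each library came from a separate animal, and p-values are set against the variation among animals.

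The ER folds secreted and membrane proteins, and unfolded proteins that build up there set off the unfolded protein response. In mammals this response has 3 sensors, namely IRE1 (ern1), which splices xbp1 messenger RNA, ATF6, which is cut free from the membrane to enter the nucleus, and PERK, which slows translation and favours that of ATF4. Their targets are the chaperones, oxidoreductases, degradation factors and translocon subunits listed here, and cells that secrete heavily, such as plasma cells and granulocyte precursors, depend on them. The roles below are given as known from mammals.

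Depth was taken from the Total row, whose unit the sources used here do not state. With an assumed scaling to reads, it was 11080875 to 14075134 reads per library. In the grna-/- libraries grna was at 65.2, 74.0 and 71.9 TPM, against 151, 135 and 146 TPM in grna+/+, so the transcript followed the labels. Marrow markers were present: the summed level of 13 erythroid markers was 82491 to 95445 TPM in grna-/-, against 21767 to 51576 TPM in grna+/+, and that of 13 neutrophil markers was 26840 to 48790 TPM in grna-/-, against 51400 to 58668 TPM in grna+/+. Of the 12 erythroid markers tested 5 rose and none fell, all 12 neutrophil markers tested had a fold change below 0 without passing, and the part of this shift in the values below was not tested. With the replicate numbers as a block, 7 erythroid markers rose and 5 neutrophil markers fell. In bulk tissue, fewer cells of a type and less RNA per cell cannot be told apart.

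Most of these genes were abundant. Averaged over the 6 libraries, 21 of the 41 genes stood at 100 TPM or more and another 19 between 10 and 100 TPM, and the median of the 40 tested genes was 117 TPM, against 16.1 TPM over all 10750 genes tested. xbp1 was the highest on average, at 846 TPM, followed by hspa5 at 623 TPM and hsp90b1 at 483 TPM. At the low end stood ern1 at 15.7 TPM, dnajb9a at 10.6 TPM and ppp1r15b at 0.639 TPM. Together the 41 genes took 0.724%, 0.635% and 0.722% of all TPM in grna-/- replicates 1 to 3, against 0.679%, 0.946% and 0.783% in grna+/+ fish 1 to 3. The highest share was in grna+/+ replicate 2 and the lowest in grna-/- replicate 2, and the genotypes overlapped.

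**Figure D1:**
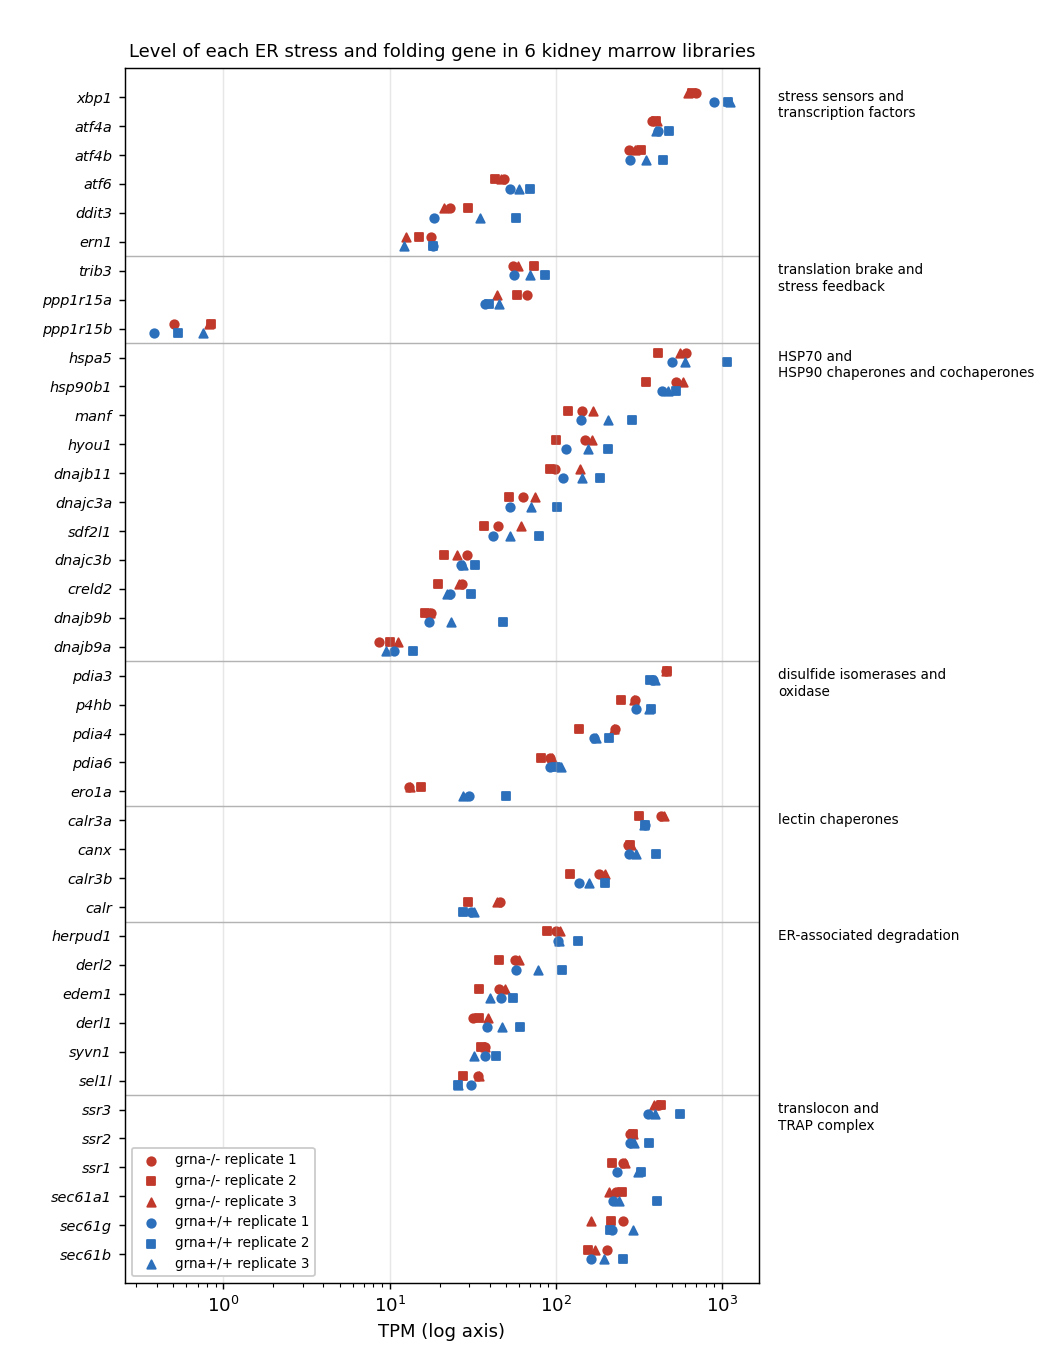
TPM (log axis) of the 41 genes in each of the 6 libraries, grouped by role and ordered by mean level within a role. Red symbols are the 3 grna-/- fish, blue symbols the 3 grna+/+ fish, and circles, squares and triangles are replicates 1, 2 and 3. Blue squares, grna+/+ replicate 2, lie farthest right for 28 of the 40 tested genes, and ero1a and xbp1 show clear space between the colours.

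The study set grna-/- marrow against grna+/+ marrow to learn what granulin does in myeloid cells, and the same comparison is read here for the ER stress and folding genes. None of them rose or fell by limma at an adjusted p below 0.05, where 1.15% of all genes tested passed (0.66% higher and 0.493% lower). At an unadjusted p below 0.05 stood 5 of the 40 genes (12.5%, against 17.6% of all genes tested), namely ero1a, xbp1, pdia3, atf6 and ppp1r15a. The 3 grna-/- values lay apart from the 3 grna+/+ values for 5 genes, 12.5% against 24.6% of all genes tested (14% higher, 10.6% lower), with ero1a, xbp1, atf6 and p4hb lower and pdia3 higher in grna-/-. The summed neutrophil, erythroid, macrophage, hepatocyte, and endothelial and stromal markers were apart between the genotypes as well. Their part in these genes was not tested. With 3 fish per genotype an exact two-sided permutation test of a single gene cannot give a p below 0.1.

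In direction the genes leaned downward. A fold change below 0 was found for 33 of 40 genes. Above 0 stood 7 (17.5%), against 57.5% of all genes tested and 35.9% of the 1148 genes with a mean of at least 100 TPM. The median log2 fold change was -0.20, against 0.066 over all genes tested and -0.078 over those 1148 genes. Without grna+/+ replicate 2 the median was -0.0155, against 0.044 over all genes, and 13 of the 40 genes were above 0. The share of all genes above 0 without that fish was not computed. No gene passed in that fit, where 0.782% of all genes did. Leaving out that fish moved the log2 fold change of 29 of the 40 genes by over 1.5 times. Of these, 23 came nearer 0 and 6 passed through 0, counts that overlap. The share over all genes was not computed, and fold changes that start near 0, as for hsp90b1, pass this bound with small moves. The 11 genes moved less were xbp1, atf6, ppp1r15a, pdia3, pdia6, p4hb, ero1a, calr, calr3a, sel1l and sec61g. Fitted with the replicate numbers as a block, 1 gene passed, ero1a, where 2.52% of all genes did. Quantile normalization also gave 1 call, ero1a (1.14% of all genes), leaving out grna+/+ replicate 1 gave 1, xbp1 (1.9% of all genes), and array weights gave 9 calls among the 40 (22.8% of all genes).

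**Figure D2:**
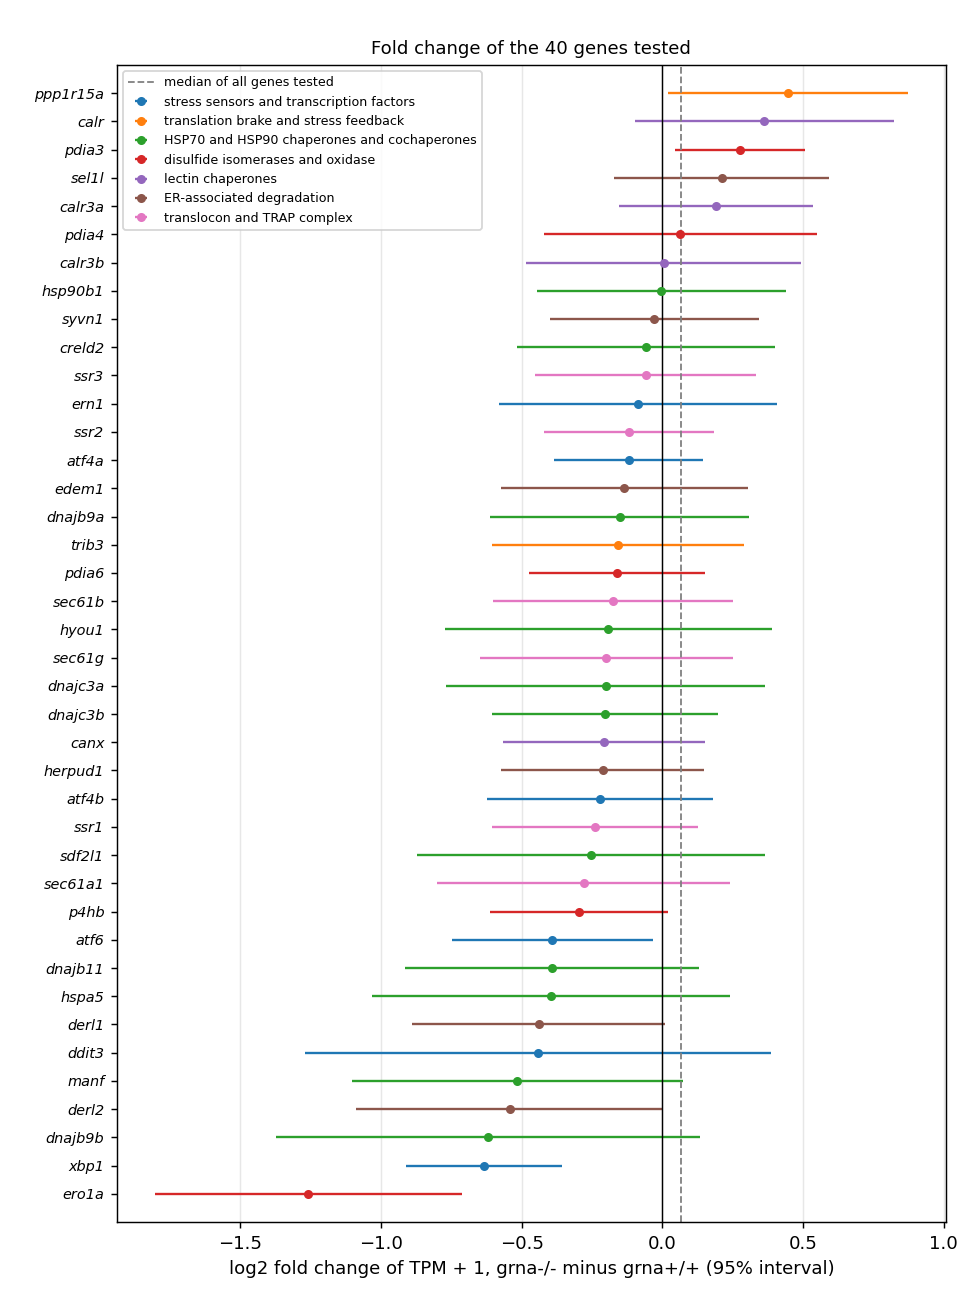
Log2 fold change of TPM + 1, grna-/- minus grna+/+, for the 40 genes tested, coloured by role, with 95% intervals from limma and a dashed line at the median of all genes tested. The intervals of 35 genes include 0, and ero1a (-1.26) and xbp1 (-0.63) lie lowest.

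The largest difference of the set was in ero1a, which encodes an oxidase that restores the disulfide isomerases to their active form. It was at 13.02, 15.5 and 13.3 TPM in grna-/- replicates 1 to 3, against 30.0, 50.1 and 27.7 TPM in grna+/+ replicates 1 to 3. All grna-/- fish lay below all grna+/+ fish, and grna+/+ replicate 2 was the highest. The mean was 13.95 ± 1.35 TPM in grna-/-, against 35.9 ± 12.4 TPM in grna+/+ (SD, n = 3 each), which put grna-/- at 38.8% of the grna+/+ level. The log2 fold change by limma was -1.26 (SE 0.238, 95% interval -1.80 to -0.71) with an adjusted p of 0.0528, just above the threshold. With the replicate block the adjusted p was 0.0215, with single fish left out it ran from 0.0531 to 0.163, and without grna+/+ replicate 2 the log2 fold change was -1.0. Its paralog ero1b, outside the set, had a log2 fold change of -0.12 with the replicate block (limma adjusted p = 0.728). Without grna+/+ replicate 2 that of ero1b was -0.064.

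The isomerases that ERO1 serves had log2 fold changes from -0.30 to 0.28. P4hb protein is the classical disulfide isomerase and also a subunit of collagen prolyl hydroxylase. p4hb was at 301, 248 and 295 TPM in grna-/-, against 302, 373 and 362 TPM in grna+/+. The genotypes were apart by less than 1 TPM at their nearest values, and the gene did not pass (log2 fold change -0.30, SE 0.137, limma adjusted p = 0.31). pdia3, the isomerase that works with calnexin and calreticulin, went the other way, at 461, 468 and 460 TPM in grna-/-, against 383, 369 and 393 TPM in grna+/+. Its libraries agreed closely within each genotype and did not overlap, yet it did not pass over all genes (log2 fold change 0.28, SE 0.10, limma adjusted p = 0.226). pdia4 was at 226, 137 and 225 TPM in grna-/-, against 169, 208 and 174 TPM in grna+/+, with grna-/- replicate 2 the lowest of the 6 (log2 fold change 0.06, SE 0.210, 95% interval -0.42 to 0.55, limma adjusted p = 0.892). pdia6 averaged 89.6 ± 7.43 TPM in grna-/-, against 100.2 ± 7.53 TPM in grna+/+ (SD, n = 3 each). Within a library, ero1a stood at 0.0433, 0.0625 and 0.0452 of the p4hb level in grna-/- and at 0.0995, 0.134 and 0.0765 in grna+/+.

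Among the sensors and transcription factors, the 6 genes measured all had fold changes below 0, although ern1 turned above 0 under array weights and with 2 of the fish left out, and none passed. xbp1, the factor activated by IRE1, was at 699, 656 and 627 TPM in grna-/-, against 888, 1082 and 1122 TPM in grna+/+. Every grna-/- fish lay below every grna+/+ fish, with a mean of 661 ± 36.2 TPM in grna-/-, against 1031 ± 125 TPM in grna+/+ (SD, n = 3 each). The log2 fold change was -0.63 (SE 0.12, 95% interval -0.91 to -0.36, limma adjusted p = 0.0538). With the replicate block the adjusted p was 0.0543, and with single fish left out it ran from 0.0403, without grna+/+ replicate 1, to 0.194. These are gene-level values, which do not separate the spliced from the unspliced xbp1 transcript.

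atf6, which encodes the membrane-bound factor that induces chaperones, was at 48.5, 43.2 and 46.6 TPM in grna-/-, against 53.0, 70.17 and 60.2 TPM in grna+/+. The genotypes did not overlap, and the log2 fold change was -0.39 (SE 0.155, limma adjusted p = 0.254). ern1, which encodes IRE1 itself, was at 17.7, 15.1 and 12.6 TPM in grna-/-, against 18.3, 18.1 and 12.3 TPM in grna+/+. The ern1 values of the genotypes interleaved (log2 fold change -0.09, SE 0.215, limma adjusted p = 0.854).

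Of the ATF4 branch, atf4a, atf4b, ddit3 and trib3 had values that overlapped between the genotypes. atf4a was at 377, 403 and 406 TPM in grna-/-, against 414, 477 and 400 TPM in grna+/+, log2 fold change -0.12 (SE 0.115, 95% interval -0.38 to 0.14, limma adjusted p = 0.596). Its paralog atf4b was at 274, 326 and 301 TPM in grna-/-, against 279, 440 and 349 TPM in grna+/+ (log2 fold change -0.22, SE 0.175, limma adjusted p = 0.511). Without grna+/+ replicate 2 the log2 fold change was -0.044 for atf4a and -0.058 for atf4b, and without grna+/+ replicate 1 it was -0.39 for atf4b. ATF4 is controlled mainly by translation, which messenger RNA levels do not measure. ddit3, which encodes CHOP, a death-promoting factor downstream of ATF4, was at 23.1, 29.5 and 21.4 TPM in grna-/-, against 18.6, 57.2 and 35.2 TPM in grna+/+. Both the lowest and the highest ddit3 values were in grna+/+ fish, and the interval was wide (log2 fold change -0.44, 95% interval -1.27 to 0.39, limma adjusted p = 0.527). Leaving out grna+/+ replicate 1 gave -0.85, and leaving out grna+/+ replicate 2 gave -0.066. trib3, a pseudokinase gene induced by ATF4 and CHOP, was at 55.2, 74.0 and 58.9 TPM in grna-/-, against 56.3, 85.6 and 69.6 TPM in grna+/+ (log2 fold change -0.16, SE 0.195, limma adjusted p = 0.69), and without grna+/+ replicate 2 its log2 fold change was -0.0083.

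ppp1r15a encodes GADD34, which lifts the translation block by directing a phosphatase to eIF2 alpha. It ran opposite to most of the set, at 67.0, 58.0 and 44.4 TPM in grna-/-, against 37.3, 39.5 and 45.3 TPM in grna+/+. grna-/- replicate 3 lay within the grna+/+ range, and the gene did not pass (log2 fold change 0.45, SE 0.186, 95% interval 0.02 to 0.87, limma adjusted p = 0.268). Its constitutive counterpart ppp1r15b was at 0.508, 0.840 and 0.819 TPM in grna-/-, against 0.381, 0.537 and 0.750 TPM in grna+/+, too low to be tested.

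**Figure D3:**
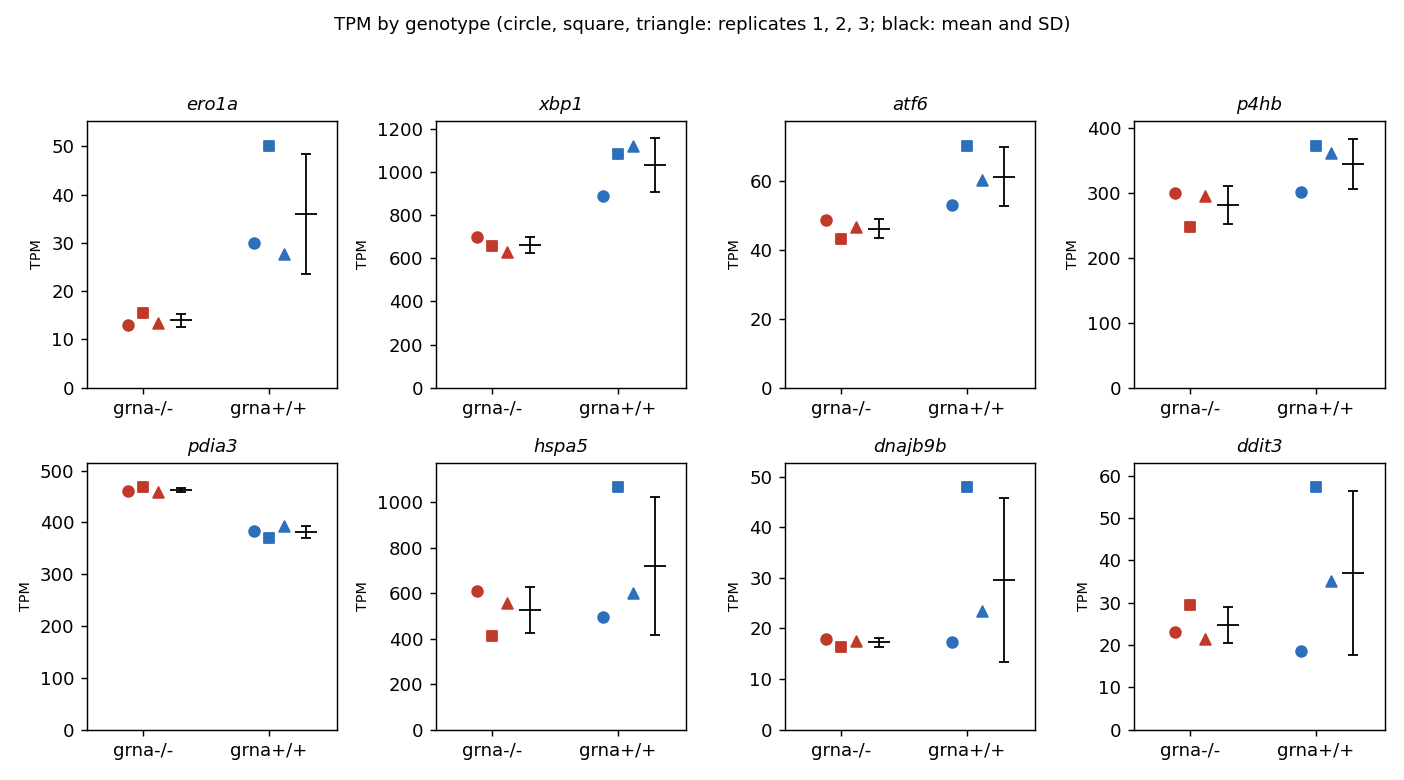
TPM of 8 genes in each fish, with grna-/- (red) left of grna+/+ (blue), circles, squares and triangles for replicates 1, 2 and 3, and the mean with SD in black. ero1a, xbp1, atf6 and p4hb are lower and pdia3 is higher in every grna-/- fish, while for hspa5, dnajb9b and ddit3 grna+/+ replicate 2 stands above all other fish.

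The luminal HSP70 and HSP90 chaperones and their cochaperones, 11 genes, had fold changes below 0, from -0.62 to -0.004 on the log2 scale, and none reached an unadjusted p of 0.05. Of these, hsp90b1, creld2, dnajc3a and hyou1 turned above 0 without grna+/+ replicate 2, and hsp90b1 also under quantile normalization and, with creld2, under array weights. In 10 of the 11 the highest of the 6 values was that of grna+/+ replicate 2. hspa5, which encodes BiP, the main chaperone and sensor partner of the ER, was at 609, 412 and 556 TPM in grna-/-, against 498, 1066 and 599 TPM in grna+/+. Apart from grna+/+ replicate 2, the grna+/+ fish lay within the wider range of the grna-/- fish, 412 to 609 TPM. The log2 fold change was -0.40 (SE 0.277, 95% interval -1.03 to 0.24, limma adjusted p = 0.467), and -0.074 without grna+/+ replicate 2. hsp90b1, which encodes GRP94, was at 527, 350 and 583 TPM in grna-/-, against 435, 525 and 476 TPM in grna+/+, with a log2 fold change of -0.004 (95% interval -0.45 to 0.44, limma adjusted p = 0.993) whose sign turned under 4 of 14 alternative settings. The ratio of hspa5 to hsp90b1 within a library was 1.15, 1.18 and 0.954 in grna-/-, against 1.14, 2.03 and 1.2599 in grna+/+, so the single high hspa5 value was not matched by hsp90b1.

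The J-domain partners of BiP ranged widely in level. dnajb9b, an ERdj4 gene, was at 17.8, 16.3 and 17.6 TPM in grna-/-, against 17.3, 47.8 and 23.5 TPM in grna+/+. The grna-/- fish lay within 1.6 TPM of one another, and the grna+/+ fish spread 2.76-fold (log2 fold change -0.62, SE 0.328, 95% interval -1.37 to 0.13, limma adjusted p = 0.355). Leaving out grna+/+ replicate 2 gave -0.22. Its paralog dnajb9a was at 8.59, 10.1 and 11.3 TPM in grna-/-, against 10.6, 13.8 and 9.47 TPM in grna+/+ (log2 fold change -0.15, SE 0.20, limma adjusted p = 0.709). dnajb11, which encodes ERdj3, was at 99.3, 92.6 and 139 TPM in grna-/-, against 110, 184 and 144 TPM in grna+/+ (log2 fold change -0.39, SE 0.227, limma adjusted p = 0.388). The log2 fold change without grna+/+ replicate 2 was -0.21 for dnajb11 and -0.011 for dnajb9a. dnajc3a averaged 63.6 ± 11.6 TPM in grna-/-, against 75.0 ± 24.3 TPM in grna+/+, and dnajc3b averaged 25.3 ± 3.94 TPM in grna-/-, against 29.1 ± 3.17 TPM in grna+/+ (SD, n = 3 each). These encode p58IPK, a J protein that also restrains PERK in mammals.

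manf, which encodes a secreted stress-induced trophic factor that binds BiP, was at 144, 118 and 168 TPM in grna-/-, against 142, 288 and 205 TPM in grna+/+. grna+/+ replicate 1 lay among the grna-/- fish, and the log2 fold change was -0.52 (SE 0.256, 95% interval -1.10 to 0.07, limma adjusted p = 0.333). sdf2l1, a stress-induced partner of ERdj3, was at 44.8, 36.9 and 61.8 TPM in grna-/-, against 42.1, 79.0 and 52.7 TPM in grna+/+ (log2 fold change -0.25, SE 0.269, limma adjusted p = 0.633). Without grna+/+ replicate 2 the log2 fold change was -0.26 for manf and -0.010 for sdf2l1, and without grna+/+ replicate 1 it was -0.77 for manf. hyou1, the nucleotide exchange factor of BiP, averaged 139 ± 33.7 TPM in grna-/-, against 159 ± 45.3 TPM in grna+/+, and creld2, a stress-induced secreted protein gene, averaged 24.3 ± 4.09 TPM in grna-/-, against 25.3 ± 4.74 TPM in grna+/+ (SD, n = 3 each). No chaperone gene passed, which does not show that their levels were equal.

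The lectin chaperones, which hold glycoproteins during folding, were the group with most fold changes above 0, at 3 of 4, though that of calr3b turned below 0 under median-of-ratios scaling and with 4 of the 6 fish left out in turn. calr was at 46.0, 29.5 and 44.4 TPM in grna-/-, against 30.9, 27.7 and 32.3 TPM in grna+/+. grna-/- replicate 2 lay among the grna+/+ fish, and the gene did not pass (log2 fold change 0.36, SE 0.20, limma adjusted p = 0.37). The main calreticulin transcript was that of calr3a, at 428, 315 and 447 TPM in grna-/-, against 345, 344 and 341 TPM in grna+/+. Its grna+/+ values spanned only 1.01-fold, the narrowest spread of the set, while the grna-/- fish lay on both sides of them (log2 fold change 0.19, limma adjusted p = 0.51). calr3b averaged 167 ± 39.7 TPM in grna-/-, against 165 ± 29.4 TPM in grna+/+ (SD, n = 3 each). canx, the membrane-bound calnexin gene, was at 273, 281 and 283 TPM in grna-/-, against 274, 403 and 302 TPM in grna+/+ (log2 fold change -0.21, SE 0.156, limma adjusted p = 0.494). In grna+/+, replicate 1 lay within the grna-/- range, replicates 2 and 3 lay above it, and replicate 2 was the highest. Without replicate 2 the log2 fold change of canx was -0.046. The sources used here do not give how reads shared by paralogs (the calr, atf4, dnajb9 and dnajc3 genes) were counted.

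ER-associated degradation, which pulls misfolded proteins back to the cytosol, had 5 of 6 genes below 0 and none called, although syvn1 turned above 0 under array weights and without grna+/+ replicate 2, and edem1 under array weights and without grna-/- replicate 2. The derlins form part of the exit channel. derl2 was at 56.8, 45.6 and 59.9 TPM in grna-/-, against 57.3, 108 and 78.5 TPM in grna+/+, log2 fold change -0.54 (SE 0.237, limma adjusted p = 0.286). derl1 was at 31.9, 34.6 and 39.2 TPM in grna-/-, against 38.4, 60.8 and 47.1 TPM in grna+/+, log2 fold change -0.44 (SE 0.196, limma adjusted p = 0.293). In both genes grna+/+ replicate 1 lay within the grna-/- range and replicate 2 was the highest fish, without which the log2 fold change was -0.31 for derl2 and -0.27 for derl1. herpud1, a stress-induced scaffold of the degradation complex, was at 100.5, 88.1 and 106 TPM in grna-/-, against 103, 135 and 105 TPM in grna+/+ (log2 fold change -0.21, SE 0.157, limma adjusted p = 0.488, and -0.087 without grna+/+ replicate 2). The ubiquitin ligase gene syvn1 averaged 36.7 ± 1.28 TPM in grna-/-, against 37.8 ± 5.85 TPM in grna+/+, and its adaptor sel1l averaged 32.1 ± 3.92 TPM in grna-/-, against 27.6 ± 3.07 TPM in grna+/+ (SD, n = 3 each). edem1, which delivers misfolded glycoproteins, averaged 43.1 ± 7.60 TPM in grna-/-, against 47.2 ± 7.55 TPM in grna+/+.

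At the translocon, all 6 genes had a fold change below 0, from -0.28 to -0.06, although ssr2 turned above 0 under quantile normalization and ssr3 under array weights and without grna+/+ replicate 2, and none reached an unadjusted p of 0.05. sec61a1, the channel subunit, was at 230, 250 and 209 TPM in grna-/-, against 221, 407 and 239 TPM in grna+/+. Without the 407 TPM of grna+/+ replicate 2, its log2 fold change was -0.0063. sec61g was the exception in its extremes, with its highest value, 290 TPM, in grna+/+ replicate 3. The translocon-associated protein genes varied more between grna+/+ than between grna-/- fish: ssr2 averaged 286 ± 7.57 TPM in grna-/-, against 313 ± 44.5 TPM in grna+/+, and ssr3 averaged 411 ± 19.4 TPM in grna-/-, against 436 ± 106 TPM in grna+/+ (SD, n = 3 each). ssr1 had the smallest p of this group, averaging 243 ± 23.1 TPM in grna-/-, against 289 ± 49.7 TPM in grna+/+ (log2 fold change -0.24, SE 0.159, limma adjusted p = 0.442, and -0.15 without grna+/+ replicate 2).

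The spread between the grna+/+ libraries bears on all of these values. The highest grna+/+ value divided by the lowest ran from 1.01 for calr3a to 3.08 for ddit3, with a median of 1.41 over the 40 genes, 1.48 over all genes tested and 1.29 over those with a mean of at least 100 TPM. Above 1.5-fold lay 16 genes (40.0%), against 48.2% of all genes tested and 28.3% of those with a mean of at least 100 TPM. grna+/+ replicate 2 held the highest of the 6 values for 28 of 40 genes (70.0%), against 23.7% of all genes tested. Divided by the mean of the other grna+/+ fish, its level had a median of 1.31 over the 40 genes and 0.961 over all genes tested, and 35 of the 40 ratios exceeded 1. The ratio was largest for dnajb9b at 2.34, ddit3 at 2.13 and hspa5 at 1.94, and it was below 1 for sec61g, calr, sel1l, pdia3 and ppp1r15a. In the grna-/- group, replicate 2 held the lowest of the 6 values for 21 of 40 genes (52.5%), against 20.1% of all genes tested. The summed kidney tubule markers were at 1997, 3555 and 1718 TPM in grna-/-, against 1894, 1992 and 1340 TPM in grna+/+. grna-/- replicate 2 was thus the highest of the 6 in tubule markers, and it was the lowest in summed neutrophil markers, at 26840 TPM. The part of either in its ER gene levels was not tested.

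**Figure D4:**
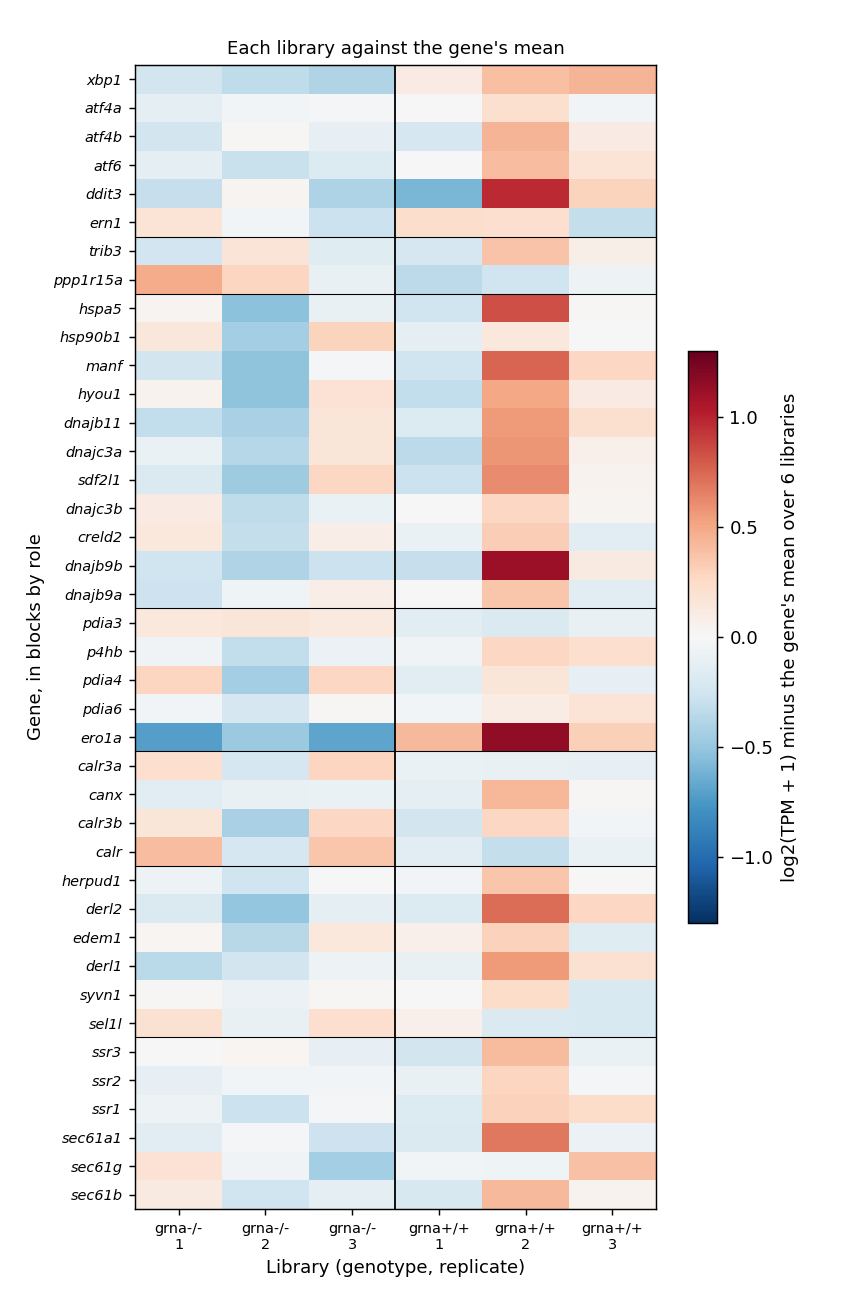
log2(TPM + 1) of each library minus the mean of the gene over the 6 libraries, for the 40 genes tested in blocks by role, with the 3 grna-/- libraries left of the 3 grna+/+ libraries. The column of grna+/+ replicate 2 is red for most genes and darkest for dnajb9b, ero1a and ddit3, and xbp1 and ero1a are blue in all grna-/- columns and red in all grna+/+ columns.

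Other measures moved with grna+/+ replicate 2. The summed level of 17 immediate early and cytosolic heat shock genes was 4193, 4473 and 5292 TPM in grna-/-, against 4085, 7441 and 5475 TPM in grna+/+, of which hspa8 alone made up 5287 TPM in grna+/+ replicate 2. Of 17 tested, 10 were highest in that library, and none of the 17 rose or fell. The globin genes hbaa1 and ba1l took 7.92%, 9.12% and 8.03% of TPM in grna-/-, against 4.15%, 2.06% and 4.93% in grna+/+, lowest in grna+/+ replicate 2. Their part in the levels of the ER genes was not tested.

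Cell types that carry much ER were looked for by marker. Of 20 plasma and B cell markers 6 were in the table, and their summed level was 185 to 291 TPM in grna-/-, against 272 to 386 TPM in grna+/+, with none called. Those 6 were cd79a, pax5, irf4a, prdm1a, cd22 and blnk, with log2 fold changes from -1.71 to 0.36, 5 below 0 and 1 above. No listed immunoglobulin gene was found under its symbol, nor was jchain, so antibody transcripts were not measured. prdm1a lay near the 1 TPM set for testing, at 0.794, 0.985 and 1.17 TPM in grna-/-, against 0.587, 2.55 and 0.769 TPM in grna+/+. Of 19 exocrine pancreas markers 15 were in the table and 3 were tested, and the digestive enzyme genes ctrb1 and pla2g1b were at 0 in all libraries. cpa5, at 865 to 1627 TPM in grna-/-, against 1491 to 1861 TPM in grna+/+, made up nearly all of the pancreas sum, and the low ela2l, at 3.69 to 8.03 TPM in grna-/-, against 0.829 to 1.202 TPM in grna+/+, rose (limma adjusted p = 0.041). Of 17 hepatocyte markers 15 were in the table, 6 were tested and none was called, with a sum of 7.58 to 20.9 TPM in grna-/-, against 22.3 to 53.5 TPM in grna+/+. None of 14 tested macrophage, 15 tested kidney tubule or 7 tested thrombocyte markers was called, and of 12 tested endothelial and stromal markers stab2 fell (limma adjusted p = 0.041). The summed macrophage markers were at 4522 to 5552 TPM in grna-/-, against 3769 to 4370 TPM in grna+/+. Those of endothelium and stroma were at 323 to 667 TPM in grna-/-, against 819 to 1003 TPM in grna+/+. Neither sum overlapped between the genotypes. Without grna+/+ replicate 2 neither ela2l (adjusted p = 0.0647) nor stab2 (0.0791) passed, and the hepatocyte marker tfa did. With the replicate block slc12a3 of the tubule, gp1bb of thrombocytes and cxcl12a of the stroma passed too; these 4 were named after their values were seen. Among the cell types, the summed markers of plasma and B cells, hepatocytes and thrombocytes were highest in grna+/+ replicate 2, and those of the others were not. The part of these cell types in the ER genes was not tested.

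Further genes of the same pathways gave 1 call. Of 11 tested regulators of the unfolded protein response outside the set, nfe2l1a fell and none rose. This gene encodes an ER-anchored factor that drives proteasome genes in mammals, and it was at 1.34, 0.879 and 1.81 TPM in grna-/-, against 5.38, 7.16 and 5.39 TPM in grna+/+. The grna-/- fish were all lower, at 22.5% of the grna+/+ mean (log2 fold change -1.58, SE 0.237, limma adjusted p = 0.0324), though the adjusted p was 0.0647 without grna+/+ replicate 2. The median of that list was -0.086, and 0.027 without grna+/+ replicate 2. The genotypes were apart for 1 gene of the list higher and 3 lower in grna-/-, where 14% and 10.6% of all genes tested were. tmem33 (log2 fold change -0.45, limma adjusted p = 0.268) and mbtps2, the protease gene that releases ATF6 (0.57, limma adjusted p = 0.307), did not pass, and without that fish stood at -0.26 (tmem33) and 0.31 (mbtps2).

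The 27 tested targets of ATF4 and genes of the integrated stress response had 11 fold changes above 0, 16 below and no call. Their median was -0.041 (0.00087 without grna+/+ replicate 2). At an unadjusted p below 0.05 stood 9 of the 27, where 17.6% of all genes tested did. The genotypes were apart for 6 genes higher and 2 lower in grna-/-, where 14% and 10.6% of all genes tested were. atf3, a stress-induced factor, was at 10.96, 18.1 and 20.0 TPM in grna-/-, against 22.6, 181 and 56.3 TPM in grna+/+. Its grna-/- values were all lower and grna+/+ replicate 2 was far above the rest (log2 fold change -1.89, SE 0.638, limma adjusted p = 0.207, and -1.12 without grna+/+ replicate 2). atf5a, a related stress factor, ran the other way, at 21.5, 31.8 and 32.3 TPM in grna-/-, against 13.9, 8.77 and 19.2 TPM in grna+/+ (log2 fold change 1.02, SE 0.288, limma adjusted p = 0.149). eif2ak1, the heme-regulated kinase of eIF2 alpha that is prominent in red cell precursors, was at 21.3, 31.4 and 27.8 TPM in grna-/-, against 17.0, 18.3 and 19.4 TPM in grna+/+, without overlap (log2 fold change 0.52, SE 0.184, limma adjusted p = 0.221). With the replicate block 1 gene of this list passed, nupr1 (log2 fold change -0.98, limma adjusted p = 0.032), which was picked after its values were seen.

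Other folding enzymes (30 tested, median -0.066), other degradation genes (17 tested, median 0.078) and other translocon, signal peptidase and oligosaccharyltransferase genes (27 tested, median -0.11) had no call in either direction. Without grna+/+ replicate 2 these medians were -0.055, 0.096 and -0.044. The genotypes were apart, higher and lower in grna-/-, for 2 and 3 of the folding enzymes, 2 and 0 of the degradation genes, and 0 and 3 of the last list. Over all genes tested the shares were 14% and 10.6%. hspa13, an HSP70-type gene of the ER, was at 21.8, 22.1 and 26.3 TPM in grna-/-, against 29.4, 82.9 and 51.9 TPM in grna+/+ (log2 fold change -1.08, SE 0.331, limma adjusted p = 0.175, and -0.72 without grna+/+ replicate 2). All its grna-/- values lay below the grna+/+ values, as did those of the translocating chain gene tram1 (log2 fold change -0.60, SE 0.261, limma adjusted p = 0.279), which stood at -0.30 without grna+/+ replicate 2. dnajb12b (0.54, limma adjusted p = 0.276), fkbp11 (0.74, limma adjusted p = 0.288), srp14 (-0.62, limma adjusted p = 0.242) and srprb (-0.41, limma adjusted p = 0.343) did not pass, nor did the degradation genes nploc4 (0.30, limma adjusted p = 0.388), os9 (0.33, limma adjusted p = 0.409) and hm13 (-0.28, limma adjusted p = 0.433). Without grna+/+ replicate 2 these values were 0.35 for dnajb12b, 0.44 for fkbp11, -0.22 for srprb, 0.15 for os9 and -0.10 for hm13.

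Vesicle traffic between ER and Golgi was mostly lower. Of 28 tested genes 25 had a fold change below 0 and 3 above. Above 0 were 57.5% of all genes tested and 35.9% of those with a mean of at least 100 TPM. None of the 28 was called, their median was -0.21, and 23 were highest in grna+/+ replicate 2. Without that fish the median was -0.10, against 0.044 over all genes, and 24 of the 28 were below 0, a share not computed over all genes. The genotypes were apart, lower in grna-/-, for 9 of the 28, where 10.6% of all genes tested were, and higher for 1, where 14% were. kdelr2a, a receptor that returns escaped ER proteins, was at 61.0, 57.6 and 58.0 TPM in grna-/-, against 86.3, 144 and 95.8 TPM in grna+/+. All grna-/- fish lay below, at 54.2% of the grna+/+ mean (log2 fold change -0.84, SE 0.199, limma adjusted p = 0.0964). The COPII coat gene sec24d (log2 fold change -0.65, limma adjusted p = 0.149) and the cargo receptor gene tmed2 (-0.45, limma adjusted p = 0.202) were also lower in every grna-/- fish without passing.

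The precision of the single-gene comparisons can be read from their intervals. For 34 of the 40 genes the 95% interval of the log2 fold change lay within -1 and 1. For ddit3, hspa5, dnajb9b, manf, ero1a and derl2 the interval reached -1 or beyond. Of the 5 genes whose interval did not include 0, 3 were lower (ero1a, xbp1 and atf6) and 2 higher (pdia3 and ppp1r15a) in grna-/-, before adjustment for the number of genes tested.

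**Figure D5:**
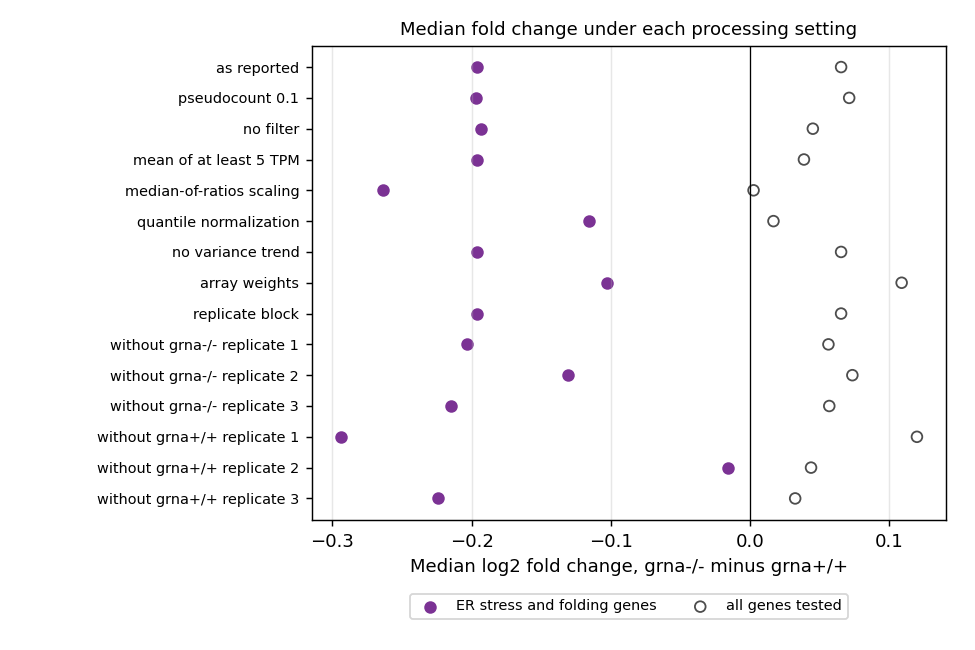
Median log2 fold change, grna-/- minus grna+/+, of the ER stress and folding genes (filled) and of all genes tested (open), as reported and under each of 14 alternative processing settings. The filled points lie between -0.29 and -0.10 except without grna+/+ replicate 2, where the median is -0.0155.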

How the data were processed

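The deposited values are TPM, in a single table with a column for each fish. The submitters' processing notes name featureCounts, Subread and DESeq2 1.26.0, and the builds GRCz10 and danRer10. The step that produced TPM and the strand setting of the counting are not stated in them. Per the series' design text, the library kit keeps strand. The Total row, which names no gene, served as depth only, and its scaling to reads was assumed. Reads per gene are not given, so no counting interval is printed.

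limma 3.58.1 (R 4.3.3) was run on log2(TPM + 1), a scale that understates the fold of low genes, for genes averaging 1 TPM or more. Genotype was the single term, the variance followed a trend with mean expression, and p-values were two-sided. Adjustment was by Benjamini-Hochberg over all genes tested, and "rose" and "fell" are kept for an adjusted p below 0.05. The fit was tested only on simulated data, with changes larger than any in this set. Genes varied independently there, so that test does not bear on changes of the size reported here or on effects shared within a fish.

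Fish with the same number in their titles deviated together from the group means (correlations across genes of 0.136, 0.153 and 0.237, each above the bound of 0.1), although no label says what they share. Blocked values are given where they change a call.

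Genes, lists and tests were chosen with earlier results of these data known. Genes described with their test include the 12 with the smallest p and 14 central genes of the response. The 14 share some genes with the 12 and include eif2ak3, which was not analysed. ern1, calr3a, canx and ssr1, in neither group, are given with their test as well. From each pathway list, called genes and the 3 with the smallest p are named, and ero1b is given beside ero1a. Gene symbols were used as deposited, and sequences were not analysed here.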

Additional observations from a re-analysis of the deposited data

How the results depend on the processing

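Over 14 alternative settings, 29 of the 40 genes kept the sign of their fold change, and the share over all genes was not computed. Passing in at least 1 setting were 9, all of them with array weights, where 22.8% of all genes passed. In the other settings only ero1a and xbp1 passed. The array weights ran from 0.327 for grna+/+ replicate 2 to 4.81 for grna+/+ replicate 3. Within grna-/- they ran from 0.658 for replicate 2 to 2.94 for replicate 1. The count of ER stress and folding genes called, 0 as reported, was 1 with quantile normalization (ero1a), 1 with the replicate block (ero1a) and 9 with array weights, and 0 to 1 with single fish left out (xbp1 without grna+/+ replicate 1). Among all genes tested, 124 passed as reported, 44 with no filter, 74 with a mean of at least 5 TPM, 76 with no variance trend, 271 with the replicate block, 2447 with array weights (22.8% of genes) and 16 to 204 with single fish left out. The median of the set ran from -0.29 to -0.0155 with single fish left out. The sign turned, never with a call, with array weights for ern1 (0.31), hsp90b1 (0.083), creld2 (0.17), syvn1 (0.16), edem1 (0.093) and ssr3 (0.049), with quantile normalization for hsp90b1 (0.11) and ssr2 (0.017), and with median-of-ratios scaling for pdia4 (-0.0041) and calr3b (-0.064). With single fish left out the values ran for ern1 from -0.27 to 0.031, hsp90b1 -0.15 to 0.22, dnajc3a -0.42 to 0.036, hyou1 -0.40 to 0.021, creld2 -0.14 to 0.084, pdia4 -0.057 to 0.30, calr3b -0.13 to 0.21, syvn1 -0.13 to 0.082, edem1 -0.25 to 0.013 and ssr3 -0.19 to 0.13. Beside ero1a, nupr1 and the cell markers counted in the results, the block by replicate number changed no call of a gene on the lists. What depth limits could not be judged, since reads per gene are not given. The cause of these shifts was not tested.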
